A study of Mus musculus with 6 samples.

Results

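The genes described here are markers of the visceral endoderm and of the yolk sac endoderm that derives from it: serum carriers, apolipoproteins, fibrinogen chains, uptake receptors, transporters and 2 nuclear factors. The list held 31 genes, fixed by name when earlier results of these data were already known. A probe set carrying the gene's symbol alone was found for 28 of them, out of 18193 genes measured in all; Trf, Soat2 and Gc had none and have no value here. Where a gene had several probe sets, the one brightest on average (mean log2 over 6 arrays) stood for it, and the members had 54 probe sets in total. Of the 28 measured members, 22 had a mean log2 signal above the median of all genes (7.36, a signal of 164.3) and 6 lay at or below it: Alb, Apoc1, Apoc3, Fga, S100g and Rbp2.

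RNA came from a dissected midline region of the gastrulating mouse embryo, node plus primitive streak, of Wnt3a wild type and Wnt3a null embryos between E7.75 and E8 (0 to 2 somites). Both genotypes were on a mixed C57BL/6 and 129/Sv background, and neither carried any other allele or treatment named in the labels. Each array was hybridised with a pool of amplified RNA from 3 embryos of one genotype and stage, with 3 pools per genotype. The study looked for targets downstream of Wnt3a, a secreted signalling ligand made in the streak.

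The visceral endoderm is the polarised epithelium that covers the early mouse embryo and, outside it, becomes the inner lining of the yolk sac. It takes up maternal nutrients through apical receptors and secretes serum proteins and lipoproteins, much as the fetal liver does later. The nuclear receptor Hnf4a is required in this epithelium for that secretory programme. As definitive endoderm forms at the streak, it intercalates into the visceral layer, so the outer layer of the dissected region holds cells of both kinds. Some members, among them Apoe, Dab2, Lrp2 and Dpp4, are also made by other embryonic cells. In a bulk sample, fewer cells of a type and less RNA per cell cannot be told apart.

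The 6 arrays had median signals of 73.7 to 86.4 over all probe sets and a common trimmed mean of 500. Wnt3a was listed at signals of 761 to 1009 across the null pools and 864.5 to 1058 across the wild-type pools, so its probe set does not check the genotype labels. Wild-type pool 1 had no Y-linked signal to speak of (Eif2s3y 4.31, against 1053 to 1788 elsewhere) and the highest Xist signal, 7440. RNA integrity, read as the 3′ over 5′ signal of Gapdh, was 2.51, 2.70 and 3.00 for wild-type pools 1, 2 and 3 and 2.09, 2.39 and 2.22 in null pools 1, 2 and 3. The same ratio for Actb was 2.68, 3.69 and 3.23 for wild-type pools 1, 2 and 3 and 2.38, 3.83 and 3.13 for null pools 1, 2 and 3. On Actb wild-type pool 2 was the highest and pool 1 the lowest of the wild type, the order most members took there. On Gapdh wild-type pool 2 lay in the middle. Among the null pools Actb was highest in pool 2 and lowest in pool 1. The members' median log2 deviation from their own 6-pool mean was -0.23, -0.02 and 0.20 in null pools 1, 2 and 3. The part of RNA integrity in the results was not tested.

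Most members above the median signal rose and fell together from pool to pool. Over the 28 members, the 3 wild-type pools spanned a median of 1.42 log2 units per member and the null pools 0.52. The median difference between genotypes, null minus wild type, was -0.04. It is not the same measure as these spans: it is signed, and 11 members higher and 17 lower in null offset each other. Wild-type pool 2 had the highest signal of the 6 pools for 25 of the 28 members (89.3%), against 20.3% of all genes, and for 22 of the 22 members above the median signal, against 21.3% of all genes above it. Wild-type pool 1 was the lowest pool for 12 of these 22 members (54.5%), against 20.2% of all genes above the median. All 12 thus had both features, which 6.16% of all genes above the median had. These are descriptions of 6 pools, and a pool has no replicate of its own.

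**Figure D1:**
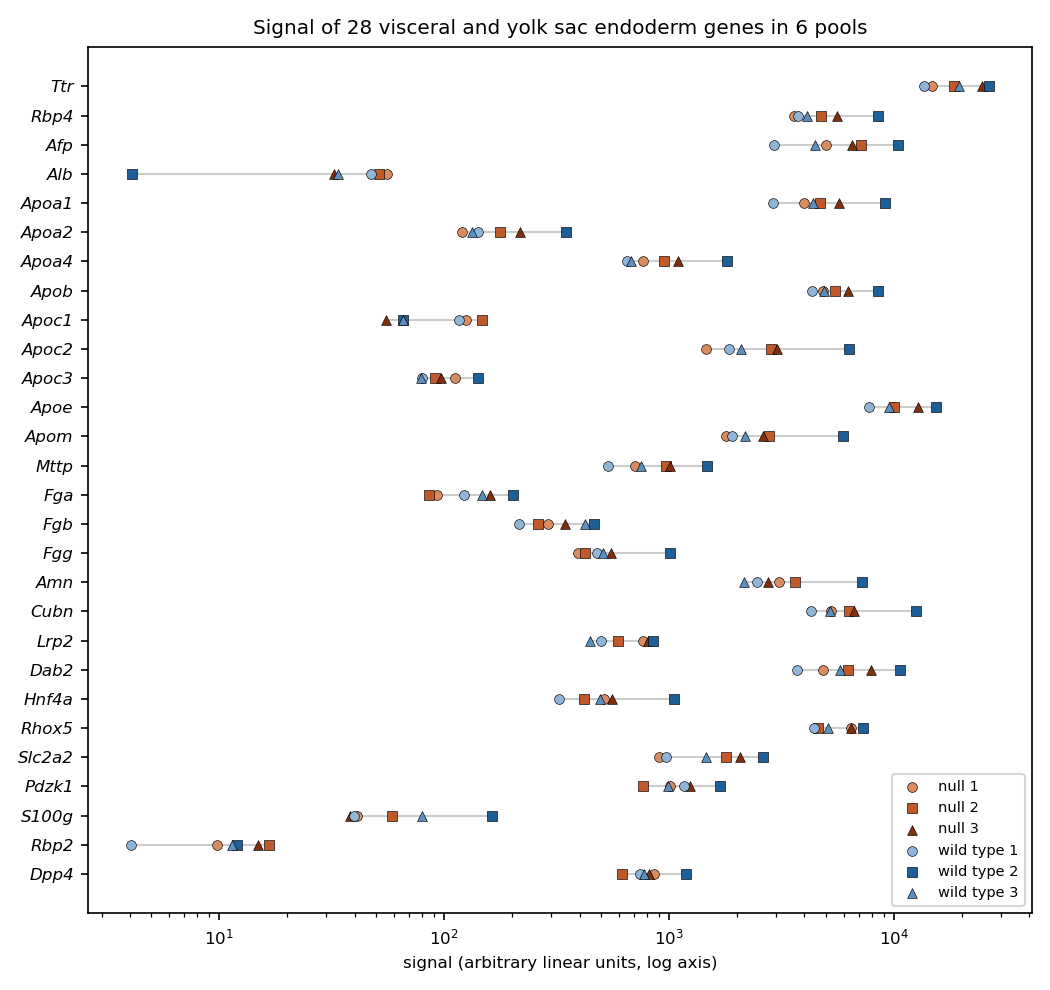
Signal of each of the 28 measured members (rows) in each of the 6 pools, on a logarithmic axis in the arrays' linear signal units; orange symbols are null pools, blue symbols wild-type pools, and the grey line spans lowest to highest. The blue square of wild-type pool 2 is the rightmost point in 25 rows.

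Of the 4 measured carriers, Ttr and Afp had wild-type pool 2 highest and wild-type pool 1 lowest. Ttr encodes transthyretin, which carries thyroid hormone and the retinol-binding protein. Its signal was 14741, 18472 and 24583 in null pools 1, 2 and 3 and 13561, 26487 and 19435 for wild-type pools 1, 2 and 3. The highest and the lowest pool were thus both wild type, and the null pools lay between them.

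Rbp4, the plasma carrier of retinol, had 3597, 4757 and 5597 across the null pools and 3752, 8472 and 4110 across the wild-type pools. Wild-type pool 2 stood 1.51-fold above the next highest pool, and the other 5 pools of both genotypes overlapped. Afp encodes alpha-fetoprotein, the main serum protein of the yolk sac and fetal liver. Its signals were 4991, 7155 and 6503 for null and 2935, 10428 and 4434 for wild-type pools, a 3.55-fold span within the wild type, the widest of the 22 members above the median. Alb, the adult albumin gene next to Afp, had low signals of 55.8, 51.6 and 32.4 for null and 47.1, 4.09 and 33.7 for wild-type pools. At these levels, far below the median gene, no order of pools was read from Alb.

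Apolipoproteins package lipid for export. Apob, the structural protein of the secreted lipoprotein particle, had 4840, 5481 and 6215 for null and 4338, 8485 and 4862 for wild-type pools. Apoa1, the main protein of high-density lipoprotein, had 3977, 4711 and 5701 for null and 2890, 9160 and 4385 for wild-type pools. For both genes wild-type pool 2 was highest, null pool 3 second and wild-type pool 1 lowest.

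Apoa4, a neighbour of Apoa1 in the same gene cluster, had 767, 954.5 and 1091 for null and 652, 1801 and 678 for wild-type pools. Apoe, a ligand for lipoprotein receptors, had 9909, 9988 and 12821 for null and 7730, 15368 and 9539 for wild-type pools. Apoc2, the cofactor of lipoprotein lipase and a neighbour of Apoe, had 1455, 2845 and 3031 for null and 1853, 6299 and 2079 for wild-type pools. Its pool 2 value was 2.08-fold above the next highest pool, and for this gene null pool 1 was the lowest. Apom, a small lipid carrier of high-density lipoprotein, had 1785, 2782 and 2613 for null and 1899, 5942 and 2176 for wild-type pools, with wild-type pool 2 again 2.14-fold above the next. Apoa2, a further high-density lipoprotein component, spanned 119.5 to 349.1, just above the median signal, with the same pool highest. Apoc3 spanned 78.8 to 141.7 with wild-type pool 2 highest, whereas Apoc1 spanned 55.4 to 148.1 and had null pool 2 highest. Mttp, which loads lipid onto the Apob protein, placed the 6 pools in the same order as Apob, with 704, 972 and 1006 for null and 537.5, 1471 and 753 for wild-type pools.

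Wild-type pool 2 was also highest for the 4 genes of the uptake machinery of the apical membrane. The lowest pool was wild-type pool 1 for Cubn and Dab2, and wild-type pool 3 for Amn and Lrp2. Cubn encodes cubilin, a receptor for many ligands in the yolk sac, and Amn encodes amnionless, the membrane anchor that brings cubilin to the surface. Cubn had 5235, 6312 and 6640 for null and 4278, 12550 and 5202 for wild-type pools. Amn had 3069, 3635 and 2743 for null and 2465, 7219 and 2153 for wild-type pools. Wild-type pool 2 was 1.89-fold above the next pool for Cubn and 1.99-fold for Amn. Dab2, an endocytic adaptor, had 4847, 6225 and 7886 for null and 3707, 10687 and 5751 for wild-type pools. Lrp2 encodes megalin, the partner receptor of cubilin. It moved less, with 768, 591 and 804 for null and 499, 852.5 and 447 for wild-type pools, and wild-type pool 2 exceeded null pool 3 by only 1.06-fold.

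Hnf4a was read at 513, 418 and 557.5 for null and 324, 1047 and 491 for wild-type pools, so this probe set took the same order within the wild type as Apoa1, with a 3.23-fold span. The 3 further Hnf4a probe sets lay at or below the median signal, had ratios of wild-type pool 2 to pool 1 of 2.72, 0.993 and 0.062, and were not highest in wild-type pool 2. Rhox5, an X-linked homeobox gene of extraembryonic tissue, varied less: 6462, 4573 and 6416 for null and 4404, 7278 and 5088 for wild-type pools. Rhox5 and S100g are X-linked, and both were lower in wild-type pool 1, the pool without Y-linked signal, than in pool 2. So were all 22 members above the median signal, with ratios of pool 2 to pool 1 of 1.45 to 3.55 (Rhox5 1.65). S100g was also low in null pools 1 and 3 (41.2 and 38.1), which had Y-linked signal. The part of sex composition in these values was not tested.

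Among transporters and brush border genes, Slc2a2, the glucose transporter GLUT2, had 902.5, 1798 and 2070 for null and 965, 2617 and 1466 for wild-type pools. Null pool 1 and wild-type pool 1 were both low for this gene, at less than the level of any other pool. Pdzk1, a scaffold for membrane transporters, had 1010, 766 and 1234 for null and 1164, 1683 and 985 for wild-type pools. Dpp4, a membrane peptidase, had 854, 619 and 814 for null and 743, 1192 and 776 for wild-type pools. For both, null pool 2 was the lowest. S100g, a calcium-binding protein, had 38.1 to 58.7 for null and 39.7, 164.1 and 79.85 for wild-type pools, and Rbp2, an intracellular retinol-binding protein, stayed at 4.07 to 16.7 in every pool.

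The 3 fibrinogen chains form the clotting protein and lie side by side in the genome. Fgg had 392.4, 423.6 and 553.2 for null and 479, 1014 and 506 for wild-type pools. Fgb had 289, 261 and 344 for null and 216, 464 and 421 for wild-type pools. Fga, below the median signal, had 92.9, 85.4 and 159.8 for null and 123, 202.6 and 147.3 for wild-type pools. Wild-type pool 2 was highest for each chain, though for Fgb wild-type pool 3 came within 1.10-fold of it.

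**Figure D2:**
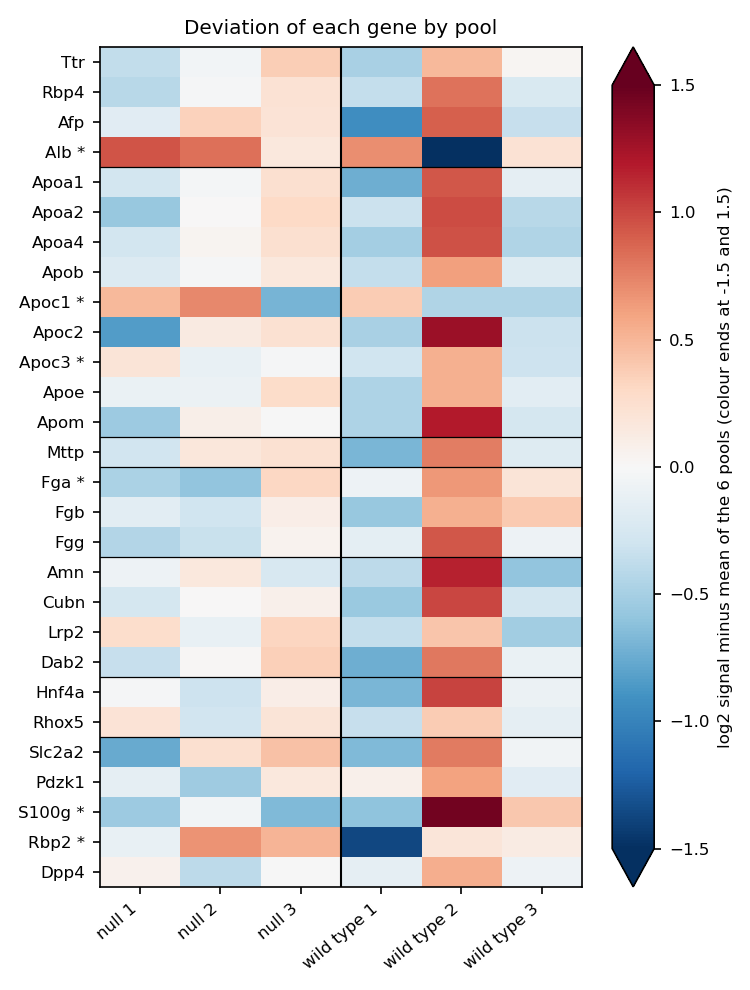
Deviation of each member's log2 signal from its mean over the 6 pools (columns), with rows ordered by role and separated by lines; asterisks mark the 6 members at or below the median signal. The wild-type pool 2 column is red for all rows but Alb and Apoc1, and the wild-type pool 1 column is mostly blue.

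Expressed per pool, the 28 members had median deviations from their own 6-pool mean of -0.23, -0.02 and 0.20 log2 in null pools 1, 2 and 3. For wild-type pools 1, 2 and 3 these were -0.46, 0.78 and -0.16. Over all genes the pool medians lay between -0.03 and 0.03. The summed signal of the members was 71662, 84367 and 99838 across the null pools and 59944, 141456 and 76287 across the wild-type pools. Of the 22 members above the median, 21 were more than 1.5-fold higher in wild-type pool 2 than in pool 1, with a median ratio of 2.59 and a range of 1.45 to 3.55. Of all genes above the median 10.8% passed that fold. The exception was Pdzk1, at 1.45-fold.

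The wider spread of the wild type rested on pool 2. The ratio of highest to lowest pool had a median of 2.67 among the wild-type pools over these 22 members, against 1.42 among the null pools, and the wild-type range was the wider one for 22 of 22 (54.4% of all genes above the median). Between wild-type pools 1 and 3 alone the higher exceeded the lower by a median of 1.17-fold, the same as for all genes above the median (1.17). Between pairs of null pools it was 1.25 to 1.36-fold, against 1.15 to 1.22-fold for all genes above the median. Such ratios carry no direction: the median deviation of the 22 members was -0.47 log2 in wild-type pool 1 and -0.18 in pool 3. Pairs were compared after the data were seen. Within the null genotype, pool 3 exceeded pool 1 for 19 of the 22 members (86.4%), against 52.6% of all genes above the median.

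Correlation over the pools gave the same picture. The median Pearson correlation between the 231 pairs of these 22 members was 0.83 over 6 arrays (Spearman 0.77), with quartiles of 0.67 and 0.92, against 0.00 between all genes above the median. After subtraction of each genotype's mean it was 0.88. All members of a pool share its embryos, its amplification and its array, so these values describe the pools and carry no p. Without wild-type pool 2 the median was 0.59 over the remaining 5 arrays, against 0.00 for all genes.

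Removal of that pool split the members. Against the mean profile of the other 21, Apob (0.99), Dab2 (0.98), Apoa1 (0.97), Cubn (0.96), Apoe (0.96), Mttp (0.94) and Ttr (0.93) stayed at high correlations over the other 5 pools. Apoa4 and Rbp4 followed, both at 0.91, then Slc2a2 (0.86), Afp (0.84), Apoa2 (0.79), Apom (0.78), Apoc2 (0.75) and Hnf4a (0.70). Amn (0.26), Fgg (0.38), Fgb (0.45), Rhox5 (0.47) and Lrp2 (0.52) followed the others less closely. Dpp4 (-0.05) and Pdzk1 (-0.06) had values near 0. Each value rests on the chosen probe set alone and on 5 pools, too few to show that a correlation is absent. With 6 pools Dpp4 had 0.73 and Pdzk1 0.65. On the chosen probe sets, members of one role stood apart in this order, with Cubn and Dab2 near the top and Amn and Lrp2 lower. Further probe sets were not placed in this order. Over 6 pools they correlated with the chosen one at 0.78, -0.02 and 0.96 for Dab2 and at 0.84 and 0.38 for Lrp2. Among the 6 dim members, Apoc3 (0.80), S100g (0.75), Fga (0.68) and Rbp2 (0.52) had positive correlations with the brighter members over 6 pools. Alb (-0.91) and Apoc1 (-0.55) had negative ones. Without wild-type pool 2 the values were 0.33 for Apoc3, -0.01 for S100g, 0.27 for Fga, 0.86 for Rbp2 and -0.52 for Apoc1. The Alb value leaned on a signal of 4.09 in wild-type pool 2, was -0.51 without that pool, and was not interpreted. Nor was that of Rbp2, with signals of 4.07 to 16.7.

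**Figure D3:**
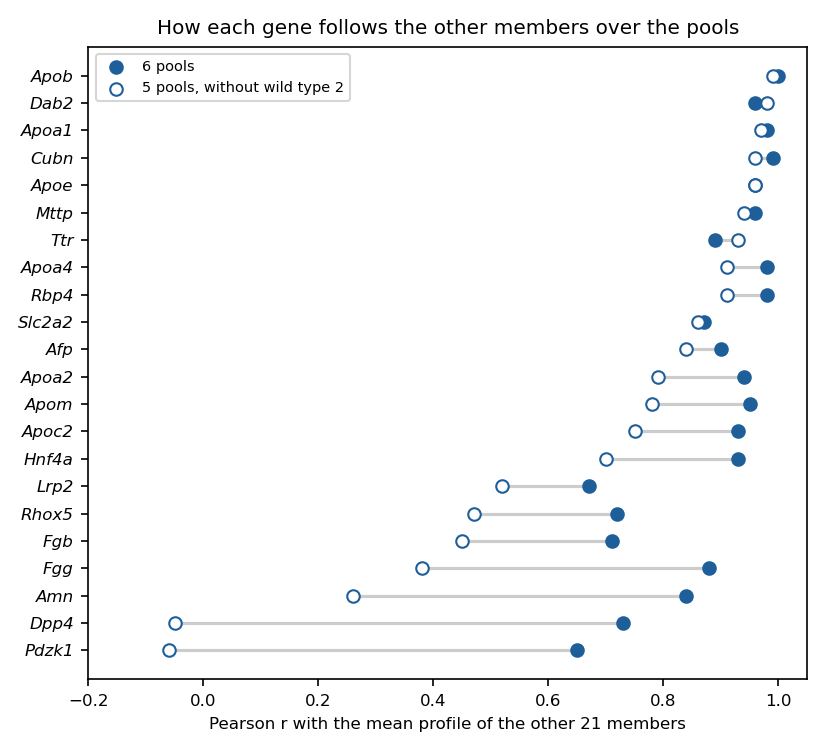
Pearson correlation of each of the 22 members above the median signal with the mean profile of the other 21, over 6 pools (filled) and over 5 pools without wild-type pool 2 (open). Apob stays at 0.99 without that pool, and Pdzk1 drops from 0.65 to -0.06.

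Further probe sets bore on whether the pattern belonged to single probes. Besides the chosen ones, 26 probe sets of 12 members were present. Of the 18 above the median signal, 16 were highest in wild-type pool 2 and 15 lowest in wild-type pool 1, with a median correlation to the chosen probe set of 0.94. Of the 8 dimmer ones 1 was highest in wild-type pool 2. The other 3 Apoa1 probe sets had pool 2 to pool 1 ratios of 2.89, 3.33 and 3.45 within the wild type, and the second Cubn probe set 3.01. A second Apob probe set had 4.95, more than the 1.96 of the chosen one. A Dab2 probe set with signals of 257.0 to 542.6 was highest in null pool 1 and had a ratio of 1.20.

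Genes of other lists were highest in wild-type pool 2 less frequently by count than the members, a difference that was not tested. Of 23 other measured genes of the visceral endoderm 9 were highest in wild-type pool 2 (39.1%, against 20.3% of all genes). Their median deviation there was 0.12, against 0.03 over all genes. Of the 17 above the median signal 8 were (47.1%, against 21.3% of all genes above it), with 0.25 against 0.01. This list thus had a larger share there than all genes. The 3 with the highest signals, Emb, Spink1 and Ctsz, had ratios of wild-type pool 2 to pool 1 of 0.914, 1.48 and 1.02. Other genes of that list, named after their values were seen, ranged more widely. Slc13a4, a sulfate transporter, had a ratio of 3.32, Vil1, the microvillus protein villin, 3.54, and Lgmn, a lysosomal protease, 2.29. The endoderm transcription factors Sox7, Gata4, Foxa1, Gata6 and Foxa3 had 2.20, 1.73, 0.993, 0.768 and 0.681. The remaining genes of the list ran from 0.609 for Tdo2 to 2.10 for Fxyd2.

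Of 6 anterior visceral endoderm genes 1, Dkk1, was highest in wild-type pool 2, where the list's median deviation was -0.50, against 0.61 in null pool 1. Of 11 definitive endoderm genes 1, Krt8, was highest in wild-type pool 2, where the list's median deviation was -0.24 and its summed signal 24029, against 22573 to 27803 in the other pools. The list's 3 genes with the highest signals, Krt8, Krt18 and Epcam, had ratios of wild-type pool 2 to pool 1 of 1.30, 1.22 and 0.505. Over the whole list these ratios ran from 0.452 to 1.39. Epcam, an epithelial adhesion molecule, had 7335, 3707 and 3863 for wild-type pools 1, 2 and 3. Of 11 parietal endoderm genes, the lineage of the outer yolk sac wall, 0 were highest in wild-type pool 2 and 9 were highest in null pool 1. Their summed signal was 30386 in that pool and 14538 to 17241 elsewhere. Of 10 yolk sac mesoderm and blood genes 1 was highest in wild-type pool 2, namely Bmp4, with 457, 1307 and 795 across the wild-type pools. That list's summed signal was 2862 to 4806 for null and 2260 to 3488 for wild-type pools. The 4806 was that of null pool 1, where Ahnak alone had 3515 and the list's median deviation was -0.32. The embryonic globin gene Hba-x, named after its values were seen, stayed at 2.61 to 55.6. Of 8 measured genes of extraembryonic ectoderm and trophoblast 0 were highest in wild-type pool 2. The lists' part in the members' pattern was not tested.

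**Figure D4:**
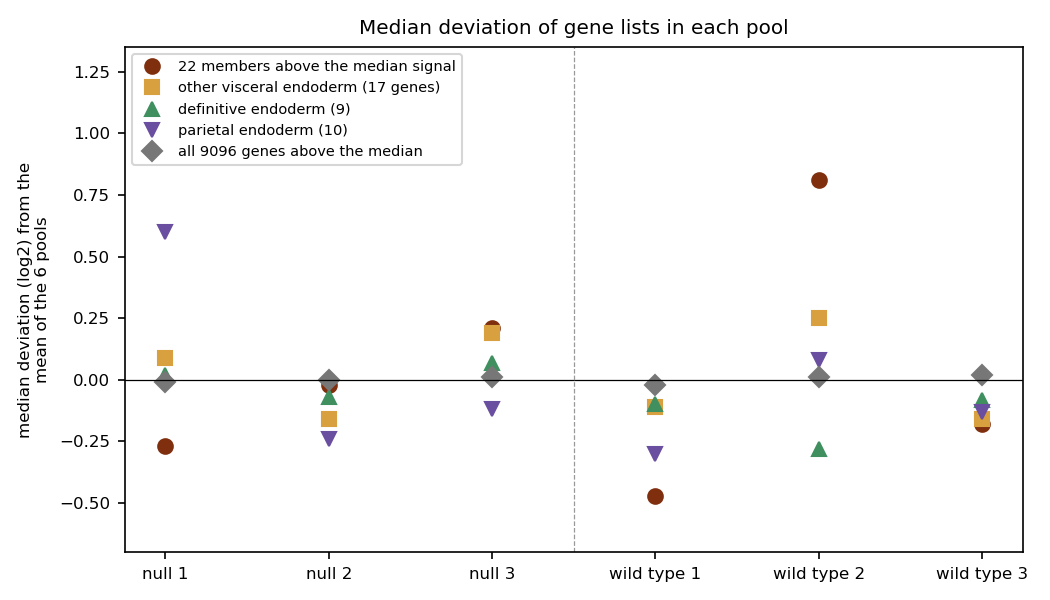
Median deviation of each gene list from its genes' 6-pool means, in log2 units, for genes above the median signal, by pool. The members lie at 0.81 in wild-type pool 2 and -0.47 in wild-type pool 1, while all 9096 genes above the median lie between -0.02 and 0.02 in each pool.

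Because most members moved together, the 250 bases before their start sites were searched on both strands for short motifs of endoderm regulators, in the RefSeq promoter table of mouse build GRCm38.p6. The table held 33 windows of 26 member genes; Ttr, Apoc1, Apoc3, Trf and Soat2 had none. The HNF1 motif GTTAAT was present in 9 of the 33 member windows (27.3%) and in 6.4% of all 32851 windows. The 9 genes were Afp, Alb, Apoc2, Apoe, Dab2, Fga, Fgb, Gc and Hnf4a. Among them Gc had no signal value, and Alb and Fga lay below the median signal. Apob, Apoa1, Cubn and Mttp, which followed the other members closely, had no HNF1 match. The brighter genes with a match had correlations without wild-type pool 2 of 0.98 (Dab2), 0.96 (Apoe), 0.84 (Afp), 0.75 (Apoc2), 0.70 (Hnf4a) and 0.45 (Fgb). Whether the motif goes with the members' shared movement was not tested. The HNF4 core AAAGTCC was in 2 windows (6.1%, against 3.6%), the FOXA motif TGTTTAC in 3 (9.1%, against 3.2%) and the GATA motif AGATAA in 3 (9.1%, against 10%). The TATA box TATAAA was in 7 (21.2%, against 12.4%). A match is a description of letters and not evidence of binding, and several genes have more than 1 window.

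Windows are shown for 5 members above the median signal, all highest in wild-type pool 2, that hold an HNF1 motif or HNF4 core. Apoe and Dab2 were also highest in that pool and hold the HNF1 motif, but are not shown. Of the 5, Fgb followed the other members less closely without that pool (0.45). A window of Alb, the neighbour of Afp, is added, with the HNF1 motif and a signal far below the median gene. Each window is read 5′ to 3′ on the gene's strand and ends at the base before the start site. Capitals mark the 5 motifs on either strand.
Afp, chr5:90490464-90490713 (+ strand): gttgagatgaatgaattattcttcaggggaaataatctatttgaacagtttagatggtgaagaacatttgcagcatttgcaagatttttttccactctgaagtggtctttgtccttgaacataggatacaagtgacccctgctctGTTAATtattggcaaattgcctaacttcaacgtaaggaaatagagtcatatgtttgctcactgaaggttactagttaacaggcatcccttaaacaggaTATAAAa
Apoc2, chr7:19677942-19678191 (- strand): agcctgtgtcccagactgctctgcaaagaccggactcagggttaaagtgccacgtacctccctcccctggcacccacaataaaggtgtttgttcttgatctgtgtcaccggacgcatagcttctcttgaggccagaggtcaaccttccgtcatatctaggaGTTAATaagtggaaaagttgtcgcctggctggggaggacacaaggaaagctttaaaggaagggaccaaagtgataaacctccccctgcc
Fgb, chr3:83049864-83050113 (- strand): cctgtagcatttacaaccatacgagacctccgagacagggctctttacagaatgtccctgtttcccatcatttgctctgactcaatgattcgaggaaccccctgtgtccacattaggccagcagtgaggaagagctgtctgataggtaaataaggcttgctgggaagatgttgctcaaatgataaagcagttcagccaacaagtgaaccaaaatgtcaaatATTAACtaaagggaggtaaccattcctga
Hnf4a, chr2:163546905-163547154 (+ strand): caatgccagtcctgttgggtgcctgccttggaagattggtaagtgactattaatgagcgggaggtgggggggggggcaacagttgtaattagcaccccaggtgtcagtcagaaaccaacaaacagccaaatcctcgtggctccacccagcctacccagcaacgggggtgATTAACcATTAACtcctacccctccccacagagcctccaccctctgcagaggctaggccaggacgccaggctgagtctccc
Apoa2, chr1:171221314-171221563 (+ strand): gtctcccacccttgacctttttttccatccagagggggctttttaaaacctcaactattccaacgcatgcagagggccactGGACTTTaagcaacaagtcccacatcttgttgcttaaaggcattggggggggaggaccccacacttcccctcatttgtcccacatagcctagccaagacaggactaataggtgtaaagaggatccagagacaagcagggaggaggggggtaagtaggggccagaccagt
Alb, chr5:90460620-90460869 (+ strand): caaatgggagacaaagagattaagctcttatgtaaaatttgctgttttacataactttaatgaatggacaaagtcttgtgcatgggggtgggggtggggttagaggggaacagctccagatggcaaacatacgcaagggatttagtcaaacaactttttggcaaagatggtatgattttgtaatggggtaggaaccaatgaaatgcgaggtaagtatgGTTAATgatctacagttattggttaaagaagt

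In Afp the motif lies 105 bases before the start and in Apoc2 89 bases before it. In Fgb and in the downstream Hnf4a window the motif is on the opposite strand, 29 bases before the start in Fgb and at 81 and 74 bases in Hnf4a. In Apoa2 the HNF4 core is on the opposite strand at 169 bases. The Alb motif lies 32 bases before the start.

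Against this spread between pools, no member passed the test of Wnt3a null against wild type. In limma 0 of 28 members passed an adjusted p of 0.05 in either direction, as did 0 of all 18193 genes (0.0%). At an unadjusted p under 0.05 there were 0 of 28, against 5.17% of all genes, and the smallest unadjusted p of a member was 0.178. Null and wild-type signals overlapped for 28 of 28 members, whereas 10.1% of all genes had groups that did not overlap (5.56% higher and 4.56% lower in null). Blocking on replicate number, together with the trend and robust settings of eBayes, limma called 0 of 28 members, against 0.0605% of all genes (0.0495% lower and 0.011% higher in null). The median log2 difference, null minus wild type, was -0.04 over the members and 0.00 over all genes, with 11 members higher and 17 lower in value in null (39.3% higher, against 50.8% of all genes).

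Intervals of the differences were wide. For Apob the log2 difference was -0.04 with a 95% interval of -0.80 to 0.72, and for Ttr it was -0.02 (-0.84 to 0.80). Apoa1 had -0.04 (-1.17 to 1.09), Cubn -0.12 (-1.21 to 0.98) and Hnf4a -0.16 (-1.30 to 0.98). Afp had a mean signal of 6217 ± 1110 for null and 5932 ± 3965 for wild-type pools (SD, n = 3 each), a log2 difference of 0.26 ± 0.50 (SE; limma, adjusted p = 1.00). Cubn had 6062 ± 735 against 7343 ± 4533 (SD, n = 3 each).

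The values farthest from 0 belonged to dim members, Alb at 1.28 (-1.13 to 3.70), S100g at -0.83 (-2.19 to 0.53) and Rbp2 at 0.71 (-0.53 to 1.95). Above the median signal they ran from -0.47 for Fgg (-1.35 to 0.40) to 0.31 for Lrp2 (-0.45 to 1.08). All 3 fibrinogen chains were lower in value in null, at -0.51, -0.24 and -0.47 for Fga, Fgb and Fgg, and none passed the test (limma, adjusted p = 1.00 for each). Without wild-type pool 2, Fgb was at -0.03 and Fgg at -0.13, and on leaving out each pool in turn they ran from -0.58 to -0.03 and from -0.67 to -0.13.

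The direction of the list's median depended on single pools of both genotypes. Without wild-type pool 2 it was 0.28 with 22 of 28 members higher in null (52.2% of all genes), and without null pool 1 it was 0.04 with 16 of 28 (51.4%). Without wild-type pool 1 it was -0.34 with 4 of 28 (48.9%). Without null pool 3 it was -0.18 and without wild-type pool 3 it was -0.13, with 6 of 28 each (51.6% and 51.0% of all genes), and without null pool 2 it was -0.04 with 10 of 28 (51.9%). In each of the 6 comparisons 0 members passed an adjusted p of 0.05 in limma, the smallest being 0.831. At an unadjusted p under 0.05 there were 2 members without wild-type pool 1 (5.39% of all genes), 1 without null pool 3 (4.75%) and 0 in the other 4.

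**Figure D5:**
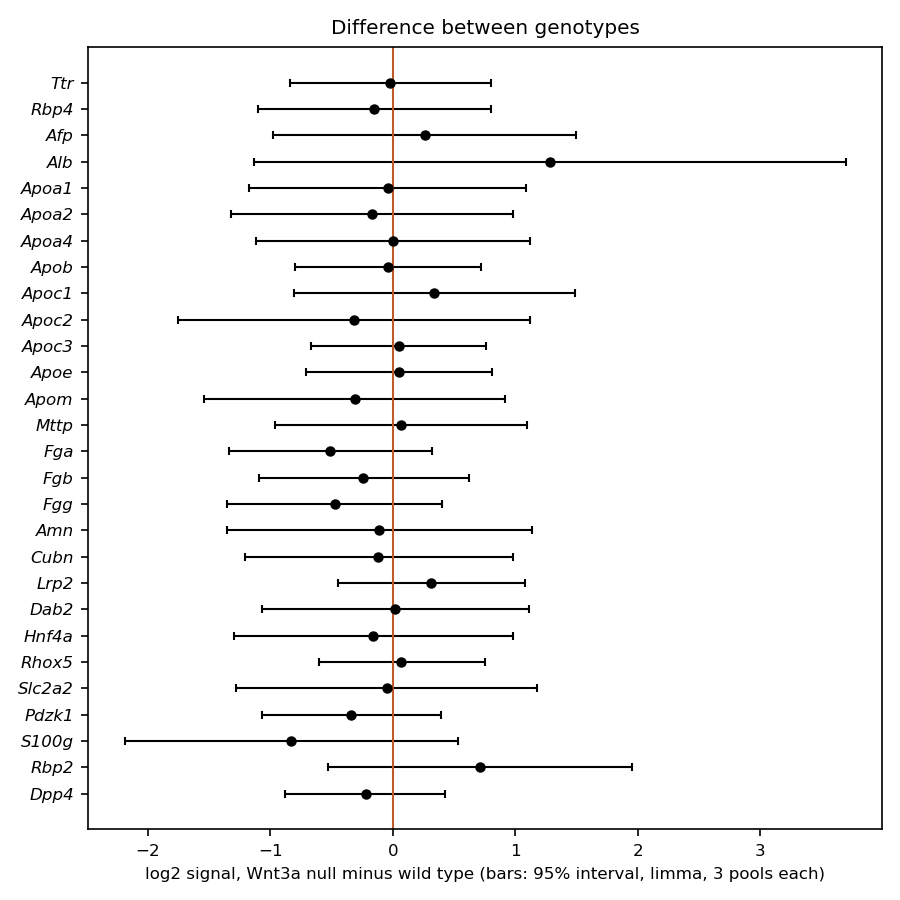
Log2 difference in signal, Wnt3a null minus wild type, for each measured member, with 95% intervals from limma (3 pools per genotype). Every interval includes 0, and those of Alb and Apoc2 are the widest.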

How the data were processed

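The deposited table holds 1 linear intensity per probe set and array for 45101 probe sets of 6 Affymetrix mouse whole-genome arrays. Per the submitters' processing notes the values come from RMA, but the deposited intensities are linear and share a trimmed mean of 500 (2% off each end), and how they were made is not given in the sources used. The number of arrays limits the precision. The 64 control probe sets were left out, 34945 probe sets carried 1 symbol, 932 several, and 9160 were not listed. Columns of no sample numbered 0.

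Signals were turned to log2, with no filter or floor, and each of 18193 genes was read from its probe set with the highest mean. Null and wild type were compared with limma 3.58.1 under R 4.3.3 (eBayes after lmFit, two-sided), Benjamini-Hochberg adjusted over all genes, threshold 0.05, after tests on simulated data. A separate exact permutation test of 3 against 3 pools cannot go below 0.1 and was not used.

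Members, lists and motifs were chosen with earlier results of these data known. Members above the median signal were named with their values, as were up to 3 genes of each marker list with the highest mean and Wnt3a; of the dimmer members up to 5 were to be named, and all 6 were, after their values were seen. Alternatives were averaging a gene's probe sets, each probe set alone, a filter at the median, log2(signal + 50), median centring, cyclic loess, array weights, trend and robust options, a replicate block and leaving out each pool.

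Both genotypes carry replicate numbers 1, 2 and 3, whose meaning across genotypes the labels leave unstated. Deviations of same-numbered pools from the genotype means correlated at 0.4483, 0.4725 and 0.2941 over the 9096 genes above the median, at 0.0727, 0.0537 and 0.0284 over all genes, and at 0.6187, -0.0117 and -0.203 over the 28 members. On the first of these the numbers were taken to pair the pools (bound 0.1), a pairing that the members themselves do not show.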

Additional observations from a re-analysis of the deposited data

How the results depend on the processing

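The count of genes called over all genes was 0 with limma and 0 to 0 on leaving out each pool. It was 1 with trend and robust options, 11 with the replicate block and those options, and 22 over every probe set with the same fit, an alternative chosen after seeing the data. With the replicate block alone it was 0, and the pairing changed no call of a member. Of 356 values of the 22 named members under alternatives, 296 kept their sign, 60 turned and 0 passed the threshold (smallest adjusted p 0.603). Members higher in null were 7 of 22 with the filter and 4 to 22 of 28 on leaving out a pool, and the median pairwise correlation then ran from 0.59 to 0.88. Turned log2 differences were, with array weights, Ttr 0.11, Rbp4 0.03, Apoa1 0.11, Apoa2 0.09, Apob 0.08, Amn 0.02, Cubn 0.03 and Slc2a2 0.15. With median centring they were Apoa4 -0.05 and Dab2 -0.03, with cyclic loess Ttr 0.05 and Apoa4 -0.01, and with 50 added Apoa4 -0.00. With the mean of probe sets they were Apoa4 -0.10, Apob 0.28 and Hnf4a 0.48. Further probe sets turned Ttr (0.10), Afp (-0.81), Apoa4 (-0.21), Apob (0.61), Hnf4a (0.69, 0.31 and 1.07) and Dpp4 (0.01 and 0.17). On leaving out each pool the ranges were Ttr -0.27 to 0.22, Rbp4 -0.37 to 0.22, Afp -0.15 to 0.77, Apoa1 -0.42 to 0.41, Apoa2 -0.41 to 0.28, Apoa4 -0.25 to 0.48, Apob -0.23 to 0.26, Apoc2 -0.64 to 0.24, Apoe -0.16 to 0.33, Apom -0.61 to 0.21, Mttp -0.25 to 0.47, Amn -0.43 to 0.44, Cubn -0.42 to 0.35, Dab2 -0.34 to 0.42, Hnf4a -0.54 to 0.30, Rhox5 -0.08 to 0.28 and Slc2a2 -0.39 to 0.33. The cause of these changes was not tested.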

Other observations

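Genes outside the list whose log2 profile over the 6 pools came closest to the mean profile of the 22 brighter members were sought among 9074 genes above the median signal, with a slope of at least 0.75. Of the 20 nearest, those with a known epithelial or lysosomal role are described here, a choice made after their values were seen; Slc13a4, Npl, Sh3bgrl2 and 2610528J11Rik held the places just after Clic6, and Top1mt, Nckipsd, Gas2l1 and Tgfbrap1 were also among the 20. Genes of one pool share its embryos, amplification and array. Clic6, an intracellular chloride channel family member, had a correlation of 0.985 with signals of 2313, 2748 and 2864 in null and 1900, 4720 and 2544 in wild-type pools. Slc7a9, an amino acid transporter subunit of absorptive epithelia, had 0.976, with 556.4, 781.2 and 774.4 in null and 472.7, 1342 and 548.7 in wild-type pools. Cdhr2, a protocadherin of the brush border, had 0.97, and the folate receptor Folr1 had 0.956. The lysosomal proteases Ctsb and Lgmn had 0.968 and 0.94. Since the search followed the members' profile, the place of wild-type pool 2 in these genes is no separate result.

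Null pool 1 stood apart for another set of genes, also named after their values were seen. Tdo2, which breaks down tryptophan, had a signal of 5536 there and 207.0 to 435.5 in the other 5 pools. Srgn, a proteoglycan core protein, had 6638 there and 233.7 to 371.7 elsewhere. Thbd, a receptor for thrombin, had 502.8 against 44.52 to 125.3. In that pool the 28 members had a median deviation of -0.23, and no member but Alb was highest there.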
